A study of Mus musculus with 12 samples.

Results

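The libraries described are the 9 of the mouse embryonic fibroblast (MEF) lines rho0, PKO-1 and PKO-6, which lack mitochondrial DNA (mtDNA), and the 3 of their mtDNA-positive parent TM6, together all 12 libraries of the series. They were chosen by line, not by any measured value: 3 replicate cultures of each line were sequenced, and the mean of the 3 derived lines was compared with TM6. TM6 MEFs are SV-40 immortalized cells of strain C57BL6/J with the genotype Pnpt1 neo-flox/neo-flox, in which both alleles of *Pnpt1*, the gene for the mitochondrial RNA-processing enzyme PNPase, are floxed, and they received no agent. The rho0 line has the same alleles and came from TM6 cells kept in 750 ng/mL of ditercalinium for 3 weeks, a drug that binds DNA and blocks replication of mtDNA, and it was grown out from a single cell. PKO-1 and PKO-6 grew from single TM6 cells, clone 1 and clone 6, after transduction with an adenovirus that carries Cre recombinase, which cuts out the floxed part of *Pnpt1*. All 4 lines grew with uridine at 50 µg/mL. Each derived line is therefore 1 single-cell colony and the parent is 1 line, so that loss of mtDNA cannot be told apart from cloning and time in culture, and p-values between cultures measure the spread between cultures of a line.

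Mammalian mtDNA encodes subunits of the respiratory chain and of ATP synthase together with the RNAs that translate them. Cells without it cannot respire, and because dihydroorotate dehydrogenase passes electrons to the respiratory chain, they need uridine as a source of pyrimidines. Mitochondrial dysfunction is known to engage the integrated stress response, in which phosphorylated eIF2α favours translation of the transcription factor ATF4 and with it genes of amino acid supply. Sterol synthesis is controlled by SREBP2, a membrane-bound transcription factor that is held in the endoplasmic reticulum by Insig proteins when sterols are plentiful.

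The totals per library were 47164832 to 67991336 estimated counts, of which the ribosomal RNA precursor *Rn45s* held 12.2% to 19.6%, and libraries of 1 line correlated at 0.991 to 0.996 over log values of the tested genes. *Pnpt1* gave 2832, 3242 and 3319 normalized counts in the TM6 libraries, and its line means were 5271 ± 229.7, 1240.1 ± 44.3 and 1944 ± 249.8 for rho0, PKO-1 and PKO-6 (SD, n = 3). It was lower than TM6 in both PKO lines and higher in rho0, with log2 fold changes of 0.75 for rho0, -1.34 for PKO-1 and -0.69 for PKO-6. The gene total counts reads from all exons, so it does not measure the excision itself. The table holds 0 entries encoded by mtDNA, and its loss was not analysed here. Of 10 tested fibroblast markers, 9 were called lower in rho0, 2 in PKO-1 and 7 in PKO-6. These were 90%, 20% and 70%, beside 21.4%, 17.9% and 19.4% of all genes. Called higher were 4 in PKO-1 and 1 in PKO-6 (40% and 10%, beside 16.4% and 21.9%). All 10 differed among the derived lines, as did 69.1% of all genes. *Col1a1* and *Pdgfrb* were lower in all 3 lines, whereas *Col3a1*, *Lum*, *Pdgfra* and *Dcn* were called in opposite directions. Of these, the proteoglycan genes *Lum* and *Dcn* had log2 fold changes of -5.98 for rho0, 3.89 for PKO-1 and -2.23 for PKO-6, and of -1.63 for rho0, 2.84 for PKO-1 and 2.52 for PKO-6. The growth factor receptor gene *Pdgfra* had -2.06 for rho0, 3.24 for PKO-1 and 0.28 for PKO-6. *Vim*, vimentin, had 123218, 128758 and 124007 normalized counts in TM6 and 64739 to 122086 (median 82624) in the derived libraries. Of 53 markers of epithelium, endothelium, blood cells, skeletal muscle and nerve, 20 were tested and 9 were at 0 in all 12 libraries. None of the 20 was in the common program (0%, beside 17.5% of all genes). By line 3, 5 and 8 of the 20 were called higher in rho0, PKO-1 and PKO-6 (15%, 25% and 40%, beside 20.7%, 16.4% and 21.9% of all genes). In the same order 5, 2 and 2 were called lower (25%, 10% and 10%, beside 21.4%, 17.9% and 19.4%). The markers summed to 12215 to 13571 normalized counts in TM6, 8570.0 to 9064 in rho0, 12200.0 to 12399 in PKO-1 and 12955 to 13979 in PKO-6. Their part in the results was not tested. In PKO-6, 3 of 5 tested epithelial markers were called higher and 1 lower, and 2 of 3 blood cell markers higher and 0 lower. There the epithelial *Epcam* had a log2 fold change of 4.29 and the macrophage gene *Lyz2* one of 6.87. The splicing regulator *Esrp1*, an epithelial marker, stood apart in PKO-6, with line means of 2.73 ± 1.92, 0.700 ± 0.606 and 449 ± 19.1 for rho0, PKO-1 and PKO-6 and 0.288 ± 0.499 normalized counts in TM6 (SD, n = 3).

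The question was which expression changes the 3 derived lines share in direction and in size. Of 14026 genes tested, 5080 (36.2%) differed between the mean of the derived lines and TM6 (edgeR's quasi-likelihood test, adjusted p under 0.01 together with a log2 fold change past 0.5 in either direction), 2526 (18.0%) higher and 2554 (18.2%) lower. A gene was placed in the common program where rho0, PKO-1 and PKO-6, each set against TM6, passed the same thresholds in the same direction. That held for 2460 genes (17.5%), of which 1162 (8.28%) were higher and 1298 (9.25%) lower than in TM6. The 3 comparisons share the TM6 libraries. Of the other genes called by the mean, 1935 passed in 2 lines, 530 in 1 line, 5 in none, and 150 passed in opposite directions in different lines. In 2455 of the 2460 genes the 9 derived libraries did not overlap with the 3 TM6 libraries, against 39.0% of all tested genes. The 2460 were chosen by their difference in these same libraries, so the lack of overlap follows largely from the choice.

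The spread in size was wide. Apart from 94 genes off in the derived lines and 40 genes off in TM6 (3 counts or fewer in each library of that side), 2326 genes of the common program had a fold change in all 3 lines, and the largest exceeded the smallest by a median of 0.61 on the log2 scale. The size was called even where this spread was at most 0.5, which held for 969 genes (6.91% of those tested), 497 (3.54%) higher and 472 (3.37%) lower. Another 602 genes had a spread above 0.5 and up to 1, and 755 had a spread above 1. A test of the 3 derived lines against each other (edgeR, adjusted p below 0.01) called 9687 of all tested genes (69.1%), 1650 of the common program and 406 of the genes of even size, so an even size is a limit on the spread and not a finding of equality. PKO-6 showed the largest of the 3 changes in 1017 genes, rho0 in 771 and PKO-1 in 538, whereas PKO-1 showed the smallest in 1160. Genes of the common program that were higher had median log2 fold changes of 1.14 in rho0, 0.98 in PKO-1 and 1.28 in PKO-6, and those that were lower had medians of -1.34, -1.13 and -1.33, beside medians of 0.02, 0.00 and 0.01 over all genes. Just inside the limit lay *Idi1*, an isomerase of sterol synthesis, with a spread of 0.499, and outside it *Trap1*, a mitochondrial chaperone, with 0.52.

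These calls take the spread between cultures of a line as the error. With the 9 derived libraries fitted as 1 group, so that the spread between lines counted as error too, 3054 genes were called. Among them were 2287 (93%) of the common program and 967 of the 969 genes of even size. Both sets were chosen from the same libraries, and those of even size for a small spread between lines. That they stayed therefore follows largely from the choice. This fit also treats the 9 cultures of 3 lines as 9 replicates. With counts summed to 1 sample per line, 3 against 1, edgeR called 0 genes after adjustment, and 1882 had an unadjusted p below 0.05. Leaving out PKO-1, whose changes were most often the smallest, left 3939 genes common to rho0 and PKO-6. Leaving out rho0 left 3085 and leaving out PKO-6 left 2894 common to the other lines. Fewer lines make a looser rule, and each omission gave more than the 2460 genes common to all 3.

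**Figure D1:**
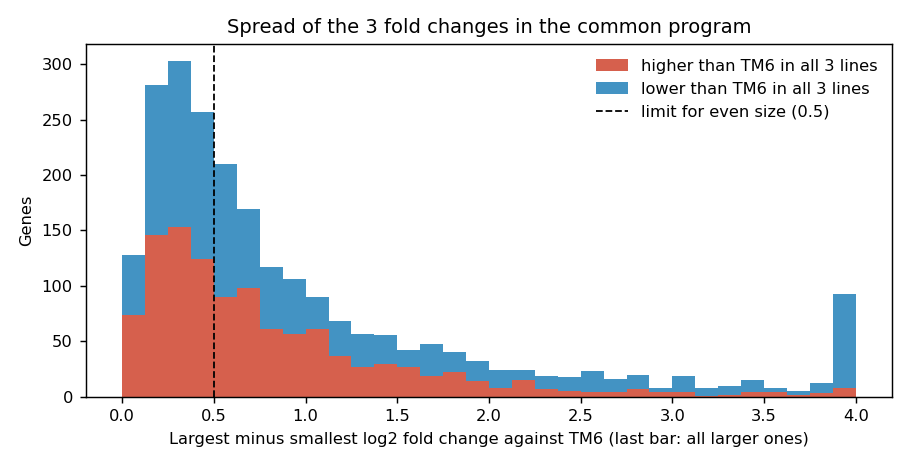
Histogram of the 2326 genes of the common program by the largest minus the smallest of their 3 log2 fold changes against TM6 (x axis, log2 units) with the number of genes on the y axis, stacked by direction. The dashed line at 0.5 bounds the 969 genes of even size, and the last bar collects all larger spreads.

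The genes of sterol synthesis were lower in all 3 lines. Of 19 genes of the list, all tested, 18 fell in rho0, PKO-1 and PKO-6 alike (94.7%, beside 9.25% of all genes), and the list's median log2 fold change was -2.23, -2.16 and -2.20 in rho0, PKO-1 and PKO-6. The falls were of even size in 8 of the 18, and 16 of the 19 genes differed among the derived lines (69.1% of all genes did). The levels of *Hmgcs1*, which joins acetyl-CoA units to HMG-CoA, were 17272, 19055 and 18934 normalized counts in TM6 and 2093 to 3571 (median 3388) in the 9 derived libraries, with a mean log2 fold change of -2.63 ± 0.05 (SE, adjusted p = 1.51e-14 by edgeR). Every derived library lay below every TM6 library.

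The most even member was *Dhcr7*, which makes the last step to cholesterol: TM6 held 1565, 1487 and 1392 normalized counts and the derived lines 278 ± 16.4, 276 ± 9.35 and 274 ± 23.8 for rho0, PKO-1 and PKO-6 (SD, n = 3), so that the log2 fold changes of -2.41 for rho0, -2.42 for PKO-1 and -2.44 for PKO-6 spanned only 0.02 (adjusted p = 0.973 among the derived lines, edgeR). *Sqle*, the squalene epoxidase, had log2 fold changes of -2.25 for rho0, -2.16 for PKO-1 and -2.37 for PKO-6. For *Msmo1*, a demethylase of sterol C4, they were -2.11 for rho0, -2.25 for PKO-1 and -2.52 for PKO-6, and for the isomerase *Idi1* they were -2.13 for rho0, -2.40 for PKO-1 and -2.62 for PKO-6. These genes and *Lss*, *Pmvk*, *Sc5d* and *Fdft1* make up the 8 members of even size. The deepest changes were those of *Nsdhl*, at -2.87 for rho0, -2.85 for PKO-1 and -3.39 for PKO-6, and of *Cyp51*, at -2.79 for rho0, -2.78 for PKO-1 and -3.38 for PKO-6, and both were deeper in PKO-6. The only member outside the common program was *Tm7sf2*, a sterol reductase, with 212, 215 and 199 normalized counts in TM6 and 139 to 223 (median 170.5) in the derived libraries. *Nsdhl* and *Ebp* lie on the X chromosome, where most genes were lower, and with each chromosome's median removed 18 members still fell in all 3 lines.

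**Figure D2:**
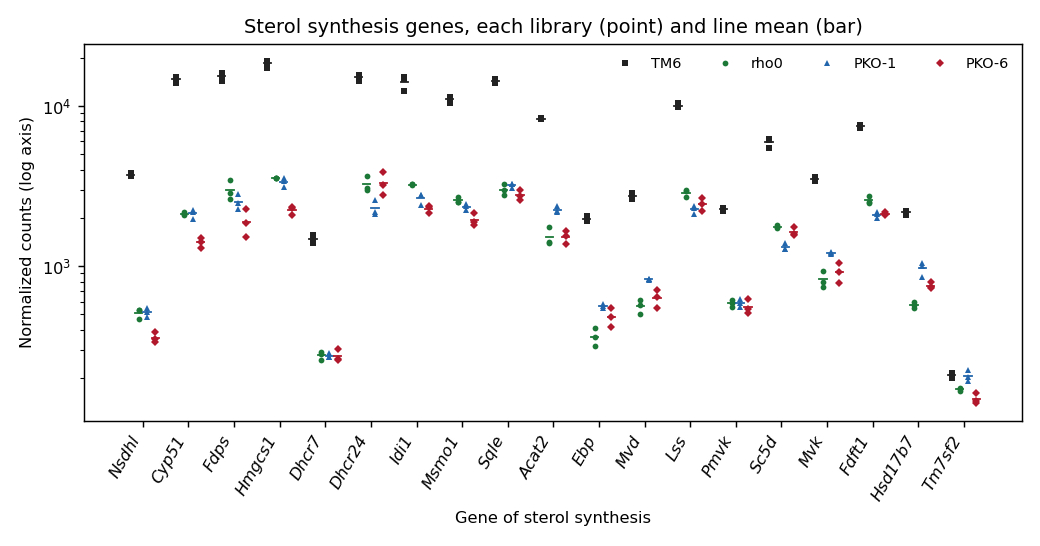
Normalized counts (log axis) of the 19 sterol synthesis genes, ordered by their mean change, with a point for each of the 12 libraries, coloured by line, and a bar at each line's mean. In 18 genes the 9 derived libraries lie below the 3 TM6 libraries, and in Tm7sf2 the lines overlap.

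Promoters of the sterol list were searched for the sterol regulatory element, the letters TCACCCCAC on either strand, in the 250 bases before the start in RefSeq's promoter table (GRCm38.p6). Only *Hmgcs1* held them, among 15 sterol genes with an entry, beside 0.66% of the 10600 tested genes with one and 0.496% of all 32851 promoters. Entries were found for 78.9% of the list and for 75.6% of the tested genes, both under the 80% needed, so the comparison of these shares is void as a check. The stretch is shown because it is the only one of the list with these exact letters, which its capitals mark. Other forms of the element were not searched for, so the other promoters may hold them.
*Hmgcs1*, chr13:119690189-119690247 (plus strand, capitals from base 137 to base 129 before the start): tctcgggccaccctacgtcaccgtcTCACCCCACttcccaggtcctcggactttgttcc

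Genes that regulate sterols and take up lipoproteins followed in part. Of 16 tested, 6 fell and 1 rose in all 3 lines (37.5% and 6.25%). *Insig1*, the feedback anchor of SREBP, went from 13547, 13619 and 13577 normalized counts in TM6 to 2113 to 3890.0 (median 2929.6) in the derived libraries. *Srebf2*, which encodes SREBP2, had log2 fold changes of -1.18, -1.81 and -1.67 in rho0, PKO-1 and PKO-6, and *Srebf1* of -0.59, -0.92 and -1.14. The cholesterol exporter *Abca1* also fell, by 2.75 ± 0.11 (SE) on the log2 scale in the mean of the lines. *Soat1*, which esterifies cholesterol for storage, was the member that rose: TM6 held 5081, 5509.5 and 5389.6 normalized counts, the derived libraries 8712 to 9058 (median 8889), and its 3 log2 fold changes spanned 0.03.

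Of 19 tested genes of fatty acid synthesis 13 fell in all 3 lines (68.4%), with medians of -0.69, -1.09 and -1.04 in rho0, PKO-1 and PKO-6. The elongase *Elovl6* fell evenly, from 9788, 10445 and 10568 normalized counts in TM6 to 2375 to 3069 (median 2856) in the derived libraries. *Fasn*, the fatty acid synthase, changed by -0.64 for rho0, -1.10 for PKO-1 and -1.04 for PKO-6 on the log2 scale, and *Elovl1* by -0.82 for rho0, -1.09 for PKO-1 and -1.12 for PKO-6, the other members of even size. The desaturase gene *Scd2*, which had 130878, 135695 and 129695 normalized counts in TM6, fell by unequal amounts, with log2 fold changes of -1.37 for rho0, -2.39 for PKO-1 and -3.10 for PKO-6. *Acaca*, the carboxylase that starts the pathway, was not in the common program, with log2 fold changes of -0.03, -0.49 and -0.70 in the same order.

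The integrated stress response list moved the other way, but unevenly. Of 31 genes, all tested, 12 rose in all 3 lines (38.7%, beside 8.28% of all genes), 0 fell, and 0 had an even size. With chromosome medians removed, 9 of the 31 rose in all 3 lines and 0 fell. By line, 28 were called higher in rho0 (20.7% of all genes), 26 in PKO-6 (21.9%) and 12 in PKO-1 (16.4%), with medians of 1.46, 1.28 and 0.33, and 30 differed among the derived lines. The largest shared rise was that of *Vldlr*, a lipoprotein receptor and known ATF4 target, which had 282, 299 and 235 normalized counts in TM6 and line means of 8759.8 ± 118, 4233 ± 58.7 and 5474 ± 206 for rho0, PKO-1 and PKO-6 (SD, n = 3), a mean log2 fold change of 4.43 ± 0.07 (SE, adjusted p = 7.11e-15 by edgeR). Every derived library lay above every TM6 library.

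The hormone gene *Gdf15*, a stress-induced cytokine, had 67.4, 50.6 and 66.8 normalized counts in TM6 and 264 to 1024 (median 633) in the derived libraries. *Stc2*, a secreted glycoprotein, had 78.7, 75.5 and 84.8 in TM6 and 342 to 1241 (median 769) in the derived libraries. In both the order was rho0, PKO-6, PKO-1, with log2 fold changes of 4.04, 2.21 and 3.34 for *Gdf15* and 3.95, 2.12 and 3.29 for *Stc2* in rho0, PKO-1 and PKO-6. The pseudokinase *Trib3* had 3.77, 1.52 and 3.46, and *Sesn2*, an inhibitor of mTORC1 signalling, 2.69, 1.38 and 2.79. *Chac1*, which cleaves glutathione, had 1.98, 0.71 and 2.59. The change of *Ppp1r15a*, which brings a phosphatase to eIF2α, was 2.53, 0.69 and 2.32. The transcription factor genes *Atf4*, *Ddit3* and *Atf3* were not called in PKO-1, whereas some other transcription factor genes of the list rose in all 3 lines. *Atf4* had 15342, 15164 and 15316 normalized counts in TM6 and line means of 30936 ± 2735, 16199.7 ± 864 and 34569 ± 1313 for rho0, PKO-1 and PKO-6 (SD, n = 3). *Ddit3*, the gene of CHOP, had log2 fold changes of 2.18, 0.13 and 2.17, and *Atf3* of 2.11, -0.10 and 1.60. *Asns*, asparagine synthetase, missed the threshold only in PKO-1, at 1.64, 0.49 and 1.51.

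**Figure D3:**
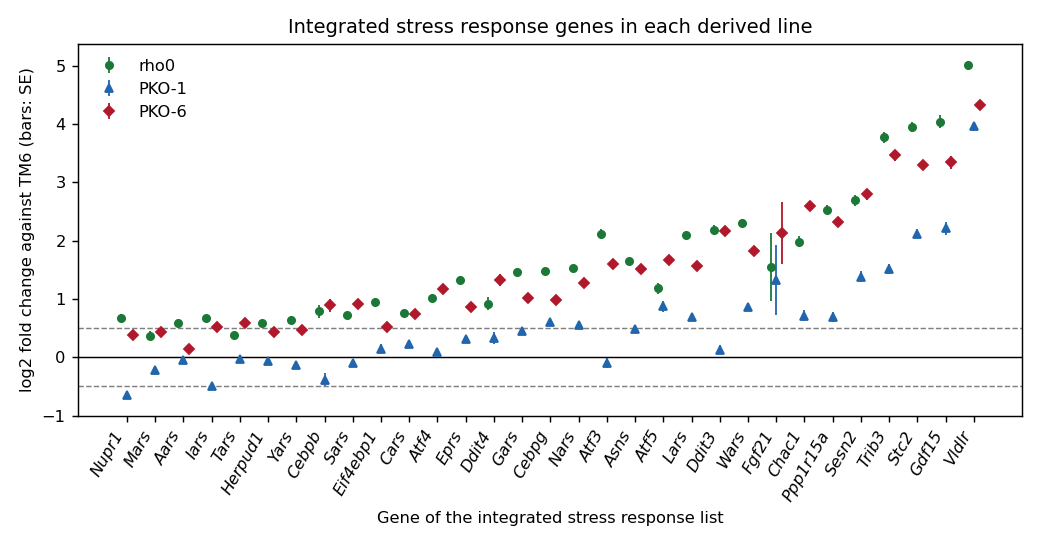
Log2 fold change against TM6 (y axis) of the 31 genes of the integrated stress response list in rho0, PKO-1 and PKO-6, with bars for the SE and dashed lines at the threshold of 0.5 on either side. The PKO-1 point is the lowest of the 3 in all 31 genes, and 12 genes have all 3 points above the upper threshold and called.

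The element to which ATF4 binds with a C/EBP partner, searched as TGATGCAA on either strand in the 250 bases before the start, lay in 8 of 25 genes of the list with a RefSeq promoter entry (32%). It lay in 72 of the 10600 tested genes with an entry (0.679%), which are only 75.6% of those tested, and in 260 of all 32851 promoters (0.791%). The list was drawn up from known genes of this response, so the share describes the list and is not independent of it. The 8 stretches are shown, each with the element in capitals as read on the gene's strand, to set them beside the changes of their genes, and TTGCATCA is the same element on the other strand.
*Vldlr*, chr19:27216795-27216852 (plus strand, capitals from base 200 to base 193 before the start): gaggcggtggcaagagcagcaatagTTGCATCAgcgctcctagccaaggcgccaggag
*Chac1*, chr2:119351024-119351081 (plus strand, capitals from base 193 to base 186 before the start): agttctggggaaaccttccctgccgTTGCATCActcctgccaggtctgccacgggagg
*Atf3*, chr1:191183411-191183468 (minus strand, capitals from base 110 to base 103 before the start): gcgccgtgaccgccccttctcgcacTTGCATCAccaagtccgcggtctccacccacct
*Fgf21*, chr7:45615597-45615654 (minus strand, capitals from base 139 to base 132 before the start): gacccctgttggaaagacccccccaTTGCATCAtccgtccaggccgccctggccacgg
*Nupr1*, chr7:126625548-126625605 (minus strand, capitals from base 110 to base 103 before the start): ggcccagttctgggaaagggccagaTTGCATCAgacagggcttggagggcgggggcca
*Herpud1*, chr8:94386292-94386349 (plus strand, capitals from base 112 to base 105 before the start): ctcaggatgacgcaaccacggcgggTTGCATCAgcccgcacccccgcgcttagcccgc
*Aars*, chr8:111033705-111033762 (plus strand, capitals from base 112 to base 105 before the start): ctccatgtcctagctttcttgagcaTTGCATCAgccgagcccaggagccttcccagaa
*Tars*, chr15:11399659-11399698 (minus strand, capitals from base 15 to base 8 before the start): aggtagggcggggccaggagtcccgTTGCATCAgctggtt

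Of these 8 genes, only *Vldlr* and *Chac1* were in the common program. The log2 fold changes of *Herpud1* were 0.59, -0.07 and 0.44 in rho0, PKO-1 and PKO-6, those of *Aars* were 0.58, -0.05 and 0.14, and those of *Tars* were 0.38, -0.03 and 0.59. *Nupr1* was called higher in rho0 and lower in PKO-1, at 0.67, -0.64 and 0.38. *Fgf21* held 21.3 normalized counts or fewer in every library, too few to tell its lines apart (adjusted p = 0.243, edgeR). The same element thus stood before genes that did and did not change in PKO-1.

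Amino acid and one-carbon genes that the same response is known to control behaved alike in part. *Cth*, cystathionine gamma-lyase, went from 629, 683 and 678 normalized counts in TM6 to 2763 to 12738 (median 10510.1) in the derived libraries, the highest rise among the 4 serine and one-carbon genes of 23 that rose in all 3 lines (17.4%). The mitochondrial folate enzymes *Aldh1l2* and *Mthfd2* had log2 fold changes of 2.79, 0.71 and 2.03 and of 1.75, 0.71 and 1.34, again with the smallest in PKO-1. Of the same list, *Gldc* and *Aldh1l1* fell in all 3 lines. The serine synthesis genes *Phgdh* and *Psat1* were not in the common program, with 0.47, -0.27 and 0.61 and 0.27, 0.14 and 0.27. Of 19 amino acid transporters, 5 rose and 3 fell in all 3 lines (26.3% and 15.8%). The cystine transporter *Slc7a11* rose evenly, from 1980.0, 2345 and 2241 to 4795 to 7232 (median 6349), whereas *Slc38a4* fell from 3300.3, 3801 and 3793 to 23.4 to 155 (median 81.9). *Slc7a3*, a transporter of cationic amino acids, rose most in PKO-1, at 2.74, 4.23 and 2.65.

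Of the mitochondrial chaperones and proteases, 4 of 20 tested rose in all 3 lines (20%) and 0 fell. *Lonp1*, the matrix protease, had 8625, 8609 and 8464 normalized counts in TM6 and line means of 35502 ± 2496, 12489.9 ± 410.4 and 27506 ± 1034 for rho0, PKO-1 and PKO-6 (SD, n = 3). The matrix HSP70 gene *Hspa9*, on chromosome 18, had log2 fold changes of 1.60, 0.70 and 1.30 in rho0, PKO-1 and PKO-6, its cochaperone *Dnaja3* of 1.14, 0.68 and 0.81 and the HSP90 homolog *Trap1* of 1.04, 0.69 and 0.52. With chromosome medians removed, 2 of the 20 rose in all 3 lines. Among genes of mtDNA replication and transcription, 3 of 28 rose in all 3 lines (10.7%, near the 8.28% of all genes) and 0 fell. Of these, *Tfb1m* had 0.74, 0.94 and 0.55, *Primpol* 1.56, 0.76 and 1.08 and *Rnaseh1* 0.85, 0.70 and 0.66. With chromosome medians removed, 2 of the 28 rose in all 3 lines. Nuclear genes of the respiratory chain gave 1 higher and 2 lower of 36 for complex I (2.78% and 5.56%), and 1 higher and 2 lower of 41 for the others and ATP synthase (2.44% and 4.88%), both under the shares of all genes. With chromosome medians removed, 0 of the 36, and 1 higher and 1 lower of the 41, were left. By line, 14 of the 41 were called lower in rho0 (34.1%, beside 21.4% of all genes), 5 in PKO-1 (12.2%, beside 17.9%) and 7 in PKO-6 (17.1%, beside 19.4%). Pyrimidine genes gave 3 higher and 1 lower of 17 (17.6% and 5.88%), with the uridine-cytidine kinase *Uckl1* at 1.38, 1.08 and 1.40 and uridine phosphorylase *Upp1* at 1.48, 0.78 and 2.34. In glycolysis and pyruvate use 5 of 33 fell (15.2%) and 1 (3.03%), the hexokinase *Hk2*, rose evenly from 3825, 3849 and 3949.7 to 7839.9 to 10448 (median 8551) normalized counts. The 5 were the glucose transporter gene *Slc2a3*, with a mean log2 fold change of -2.67 ± 0.27 (SE), *Pdk4* and *Pdk3*, kinases of pyruvate dehydrogenase, its subunit gene *Pdha1* and the bifunctional *Pfkfb1*, and the last 3 lie on the X chromosome. With chromosome medians removed, 3 of the 33 fell.

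Of 34 genes of antioxidant defence 11 fell and 1 rose in all 3 lines (32.4% and 2.94%), and 7 of the falls were even. By line 20 were called lower in rho0, 12 in PKO-1 and 20 in PKO-6. These were 58.8%, 35.3% and 58.8%, beside 21.4%, 17.9% and 19.4% of all genes. *Gclm*, the regulatory subunit of glutamate-cysteine ligase, fell from 5603, 6101 and 5873 normalized counts in TM6 to 2118 to 2860.3 (median 2461) in the derived libraries. The glutathione synthetase *Gss* had log2 fold changes of -0.90, -0.76 and -0.79 in rho0, PKO-1 and PKO-6, *Sod1* of -0.59, -0.56 and -0.91 and *Keap1*, the NRF2 inhibitor, of -0.55, -0.70 and -0.69. *G6pdx*, which supplies NADPH and lies on the X chromosome, had -2.02, -1.56 and -1.82. With chromosome medians removed, 8 of the 34 fell in all 3 lines. The 1 riser was *Slc7a11*.

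By the rule of the smallest change among the 3 lines, the strongest even rises were those of *Tmem47*, *Adssl1*, *1110002L01Rik*, *Plag1*, *Acad10*, *Nr4a2*, *Klf4*, *Fkbp1b*, *Manea* and *Nipsnap1*. *Tmem47*, a junction protein gene on the X chromosome, had 163, 217 and 206 normalized counts in TM6 and 1177 to 1791 (median 1509) in the derived libraries. *Adssl1*, an enzyme of AMP synthesis, had 244, 217 and 244 in TM6 and 1269 to 1894 (median 1496) in the derived libraries. *Klf4*, a transcription factor, had 1595, 1631 and 1597 in TM6 and line means of 5066 ± 255, 4601 ± 227 and 4953 ± 107 for rho0, PKO-1 and PKO-6 (SD, n = 3). Even size and no overlap with TM6 were part of the rule that chose these genes, and *Tmem47* and *Adssl1* still differed among the derived lines (adjusted p = 0.0067 and 0.00103, edgeR). The zinc finger gene *Plag1* had log2 fold changes of 2.24, 2.17 and 2.00 in rho0, PKO-1 and PKO-6, *Acad10* of 1.89, 1.72 and 1.91 and the nuclear receptor *Nr4a2* of 1.71, 1.60 and 2.05. *Nipsnap1*, which encodes a mitochondrial protein, spanned 0.06 around a mean of 1.54 ± 0.07 (SE), and the mannosidase *Manea* 0.08 around 1.56 ± 0.08. *Adssl1*, *1110002L01Rik* and *Fkbp1b* lie on chromosome 12, where genes were higher as a group.

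Among the strongest even falls were 4 sterol genes, *Dhcr7*, *Idi1*, *Msmo1* and *Sqle*. Beside them stood *Npr3*, the clearance receptor for natriuretic peptides, which fell from 14352, 16588 and 16488 to 1512 to 2127 (median 1726) normalized counts, a mean log2 fold change of -3.16 ± 0.05 (SE, adjusted p = 7.11e-15 by edgeR). *Daam2*, a formin of Wnt signalling, fell from 1061, 1066 and 1004 to 81.9 to 137 (median 109.5), and *Tuba1a*, an alpha-tubulin, from 28867, 28957 and 27852 to 4696 to 7749 (median 6069). The matrix glycoprotein *Tnc* had log2 fold changes of -2.17, -2.36 and -2.14 in rho0, PKO-1 and PKO-6, and the imprinted gene *Mest* of -2.01, -2.12 and -2.13. *Gm5424* headed the list, with 479.9, 812 and 867 in TM6 and 0 to 143 (median 27.9) in the derived libraries. Its rho0 libraries held 0, 0 and 143, so its size in rho0 and its place among the even falls rest on 1 library, and without it the mean log2 fold change went from -4.10 to -6.98. Its annotated position on chromosome 2, bases 31470308 to 31520629 of GRCm38, overlaps that of *Ass1*, argininosuccinate synthase, so the split of reads between them is uncertain. *Ass1* itself had -3.47, -4.75 and -2.26.

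A further 94 genes of the common program were off in the derived lines, and their size is only bounded. *Hand2*, a limb and heart transcription factor gene, had 1526, 1534 and 1407 normalized counts in its TM6 libraries and 0 in each of the 9 derived ones, at least 417-fold lower against a floor of 3 counts per library. The gelatinase gene *Mmp2* had 1574, 1479.8 and 1404 in TM6 and 0 in all 9, at least 416-fold lower. *Hoxd13* had 1238, 1427 and 1410.0 and 0, at least 380.0-fold lower. None of the 3 had a read in a derived library. *Postn*, periostin, had 768, 798 and 704 in TM6 and 0 to 3.35 (median 1.19) in the derived libraries, at least 212-fold lower. For the hindlimb factor *Pitx1* the fall was at least 138-fold and for the endothelin receptor *Ednrb* at least 108-fold. Of the 40 genes off in TM6 and called in all 3 derived lines, *Ostn*, a secreted peptide of muscle and bone, came first, with 0 in the 3 TM6 libraries and line means of 1062 ± 24.5, 247 ± 22.1 and 1473 ± 211 for rho0, PKO-1 and PKO-6 (SD, n = 3), at least 82.7-fold higher in the lowest line. *Cox6a2*, the muscle isoform of a cytochrome c oxidase subunit, had 2.59, 0.955 and 2.99 in TM6 and 41.7 to 1066 (median 539.6) in the derived libraries, at least 20.5-fold higher. *Sspo*, *Ccdc7b*, *Akr1b7* and *Otog* followed, at bounds of 10.9-, 9.19-, 8.25- and 7.77-fold higher.

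Patterning genes were among the genes off in the derived lines. Of 35 tested Hox genes, which set position along the body and limb axes, 8 fell in all 3 lines (22.9%), all of them off in the derived lines, and 2 rose. The 8 were *Hoxa13*, *Hoxc10*, *Hoxc11*, *Hoxc13*, *Hoxd10*, *Hoxd11*, *Hoxd12* and *Hoxd13*, genes of the 5' ends of 3 clusters. Another 7 of the 35 moved in opposite directions, beside 3.41% of all genes. By line, 7, 7 and 12 were called higher in rho0, PKO-1 and PKO-6. These were 20%, 20% and 34.3%, beside 20.7%, 16.4% and 21.9% of all genes. In the same order 14, 19 and 10 were called lower (40%, 54.3% and 28.6%, beside 21.4%, 17.9% and 19.4%). *Hoxb4* rose evenly, at 0.52, 0.52 and 0.88 in rho0, PKO-1 and PKO-6. Of 42 mesenchymal transcription factors 15 fell and 2 rose in all 3 lines (35.7% and 4.76%), with 5 off. By line 4, 12 and 3 were called higher in rho0, PKO-1 and PKO-6 (9.52%, 28.6% and 7.14%). In the same order 24, 17 and 27 were called lower (57.1%, 40.5% and 64.3%), and the medians were -0.69, 0.09 and -0.83. The even fall was that of *Irx5*, from 489, 464 and 509.5 to 109 to 164 (median 149.6) normalized counts. Of 34 Wnt genes 12 fell and 2 rose (35.3% and 5.88%). The inhibitor *Sfrp2* fell from 5615, 5699.6 and 5220.1 to 1.94 to 29.8 (median 19.9), and the coreceptor *Ryk* fell evenly, at -0.97, -0.90 and -1.10. In TGF-beta and BMP signalling 11 of 37 fell and 4 rose (29.7% and 10.8%), and the receptor *Tgfbr2* and the inhibitor *Smad6* fell evenly, at -1.81, -1.79 and -1.51 and at -1.98, -1.67 and -1.93.

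Many genes of the fibroblast matrix fell in all 3 lines, by amounts that differed, and others moved apart. In bulk RNA, fewer cells that express a gene and less of its RNA per cell cannot be told apart. Of 35 glycoproteins and proteoglycans 20 fell and 1 rose in all 3 lines (57.1% and 2.86%), with medians of -1.57 in rho0, -1.38 in PKO-1 and -2.14 in PKO-6. Of 29 collagens 12 fell and 3 rose (41.4% and 10.3%), and 0 of the falls were even. In opposite directions were 6 of the glycoproteins and proteoglycans and 2 of the collagens, beside 3.41% of all genes. In PKO-1, 8 and 6 were called higher (22.9% and 20.7%, beside 16.4% of all genes). *Col1a1*, the main collagen of fibroblasts, had 196509, 186142 and 163969 normalized counts in TM6 and 30948 to 103746 (median 57449) in the derived libraries. *Col5a2* had log2 fold changes of -1.67, -2.26 and -2.63 in rho0, PKO-1 and PKO-6, and *Col12a1* of -3.81, -2.93 and -4.35. *Bgn*, biglycan, ranged widely, at -2.59, -6.44 and -8.83. Against these, *Fn1*, fibronectin, rose evenly from 112637, 118009 and 109163 to 207244 to 277799 (median 237683), and so did *Col18a1*, from 8597, 8571 and 8114 to 22332 to 28942 (median 26239). Of 24 contractile genes 10 fell and 0 rose (41.7%). *Acta2*, smooth muscle actin, fell from 11204, 11729.8 and 11727 to 53.9 to 847 (median 496), furthest in PKO-6, and *Tpm1*, a tropomyosin, fell evenly, at -2.20, -1.74 and -1.97. The X-linked filamin gene *Flna* had -0.93, -0.82 and -1.04.

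Of 16 tested chemokines and cytokines 9 fell and 2 rose in all 3 lines (56.2% and 12.5%). *Cxcl12*, a chemokine of stromal cells, fell from 19484, 18748 and 18919 normalized counts to line means of 152 ± 3.33, 2.59 ± 0.850 and 7.13 ± 2.87 for rho0, PKO-1 and PKO-6 (SD, n = 3). *Ccl2* fell least in PKO-6, with log2 fold changes of -6.87, -4.26 and -2.85 in rho0, PKO-1 and PKO-6. *Csf1*, the macrophage growth factor, fell from 26824, 26237 and 27427 to 11216 to 18334 (median 12268). Interferon-stimulated genes gave 11 lower and 0 higher of 32 (34.4%). The ubiquitin-like *Isg15* had -1.83, -2.26 and -3.62, *Ifit1*, a sensor of viral RNA, -2.73, -1.11 and -2.82, and the transcription factor *Stat2* -0.65, -0.77 and -0.70, the even member.

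Of 24 p53 target genes 6 rose and 1 fell in all 3 lines (25% and 4.17%). The CDK inhibitor *Cdkn1a* had 1019, 909 and 893 normalized counts in TM6 and line means of 4159 ± 337, 4431 ± 85.8 and 9331 ± 523 for rho0, PKO-1 and PKO-6 (SD, n = 3), and *Trp53inp1* had log2 fold changes of 2.27, 2.44 and 3.97, both highest in PKO-6. *Sesn2* is also on the stress list. The lists of DNA replication and mitosis were hardly represented, with 1 higher and 2 lower of 43 (2.33% and 4.65%) and 1 lower of 35 (2.86%). By line, 21 mitosis genes were called lower in rho0 (60%, beside 21.4% of all genes), 12 in PKO-6 (34.3%, beside 19.4%) and 1 in PKO-1 (2.86%, beside 17.9%). Their medians were -0.54, 0.15 and -0.33 in rho0, PKO-1 and PKO-6. All 35 differed among the 3 lines, as did 69.1% of all genes. Of the DNA replication genes 12, 5 and 14 were called lower in rho0, PKO-1 and PKO-6 (27.9%, 11.6% and 32.6%).

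**Figure D4:**
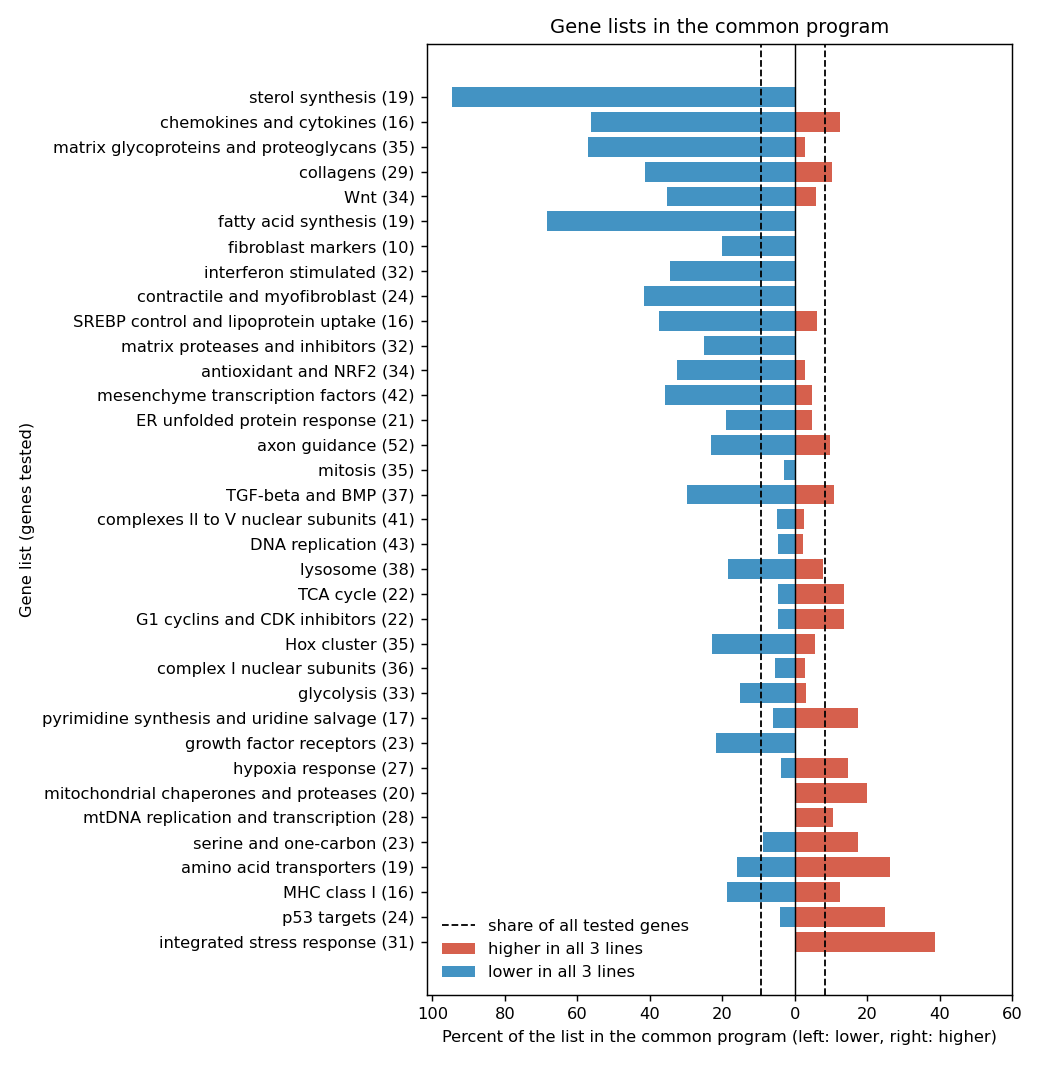
Percent of each gene list (y axis, genes tested in brackets) that fell (left) or rose (right) in all 3 derived lines, with lists ordered from top to bottom by their median log2 fold change, lowest first. The dashed lines give the shares of all tested genes, 9.25% lower and 8.28% higher, and the sterol synthesis bar reaches 94.7% while integrated stress response genes reach 38.7% on the other side.

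Part of the common program was grouped by chromosome. Genes of chromosome 12 had median log2 fold changes of 0.55, 0.56 and 0.53 in rho0, PKO-1 and PKO-6, those of chromosome 18 of 0.42, 0.42 and 0.34, and those of the X chromosome of -0.75, -0.74 and -0.87. On chromosome 12, 28.7% of 491 tested genes rose in all 3 lines and 90 rose evenly, and on chromosome 18 it was 20.4% of 382. On the X, 45.3% of 459 tested genes fell in all 3 lines and 117 fell evenly. These chromosomes hold 9.50% of the tested genes and 19.6% of the common program, 482 of 2460 genes. Among genes on all other chromosomes 15.6% were in the common program. No chromosome's median was removed in the values given above. *Xist*, the noncoding RNA that silences an X chromosome, had 38495, 29776 and 38340.2 normalized counts in TM6, from 47051 to 109328 in rho0, from 55288 to 99686 in PKO-6 and at most 53.6 in PKO-1. The X median was -0.74 in PKO-1, where *Xist* was almost absent, and -0.75 and -0.87 in rho0 and PKO-6, where it exceeded TM6. What lowered the X genes was not tested.

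**Figure D5:**
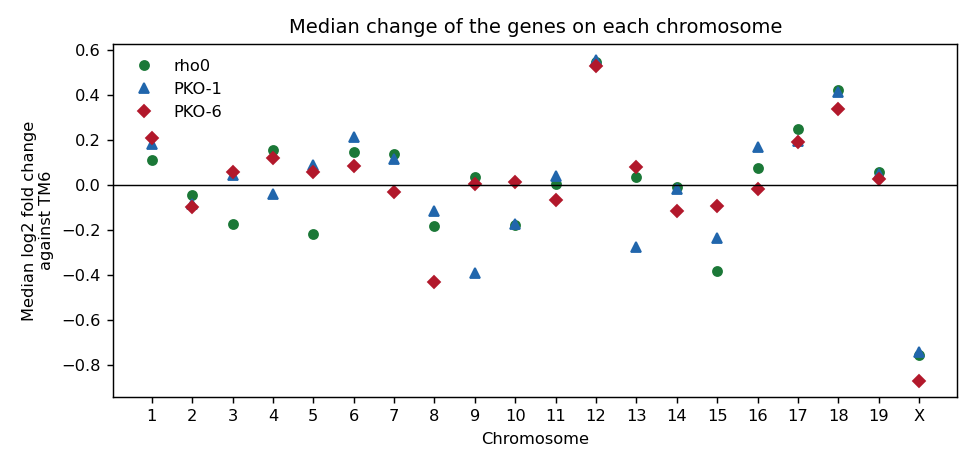
Median log2 fold change against TM6 (y axis) of the tested genes on each chromosome (x axis) in rho0, PKO-1 and PKO-6. The 3 points coincide between 0.53 and 0.56 on chromosome 12 and lie between -0.87 and -0.74 on the X, and are spread on chromosomes such as 9 and 13.

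Outside the common program, 478 genes (3.41%) were called higher in at least 1 derived line and lower in another. Among genes averaging 100 normalized counts or more, the largest spreads were those of *Xist*, *Arap2* and *Slc52a3*. *Arap2*, a regulator of small GTPases, had line means of 2163 ± 195, 0.794 ± 1.37 and 82.9 ± 10.3 for rho0, PKO-1 and PKO-6 (SD, n = 3) and 53.6, 49.7 and 55.8 normalized counts in TM6. *Slc52a3*, a riboflavin transporter, had line means of 114 ± 9.39, 0 ± 0 and 308 ± 37.8 for rho0, PKO-1 and PKO-6 and 44.1, 30.6 and 21.9 in TM6. Neither was called by the mean contrast, which gave an adjusted p of 0.87 for the first and 0.057 for the second (edgeR).

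Of the 15 genes that the study names for expression, 6 were in the common program (17.5% of all genes were) and 2 of these were even. The study listed *Rnaseh1* among genes changed in rho0 only, and *Dag1*, *Artn*, *Vcl*, *Agrn* and *Fgfr2* among those changed in PKO only. Here each of them was called in all 3 lines. The study used DESeq2 with moderated fold changes, and why the calls differ was not tested. *Rnaseh1*, which removes RNA primers from DNA and lies on chromosome 12, rose from 516, 481 and 475 to 754 to 914 (median 799) normalized counts. *Dag1*, dystroglycan, fell from 18367, 19312 and 18169 to 7401 to 11183 (median 9824). *Artn*, a neurotrophic ligand, and *Vcl*, vinculin, fell in all 3 lines, at -1.82, -1.79 and -2.99 and at -1.07, -0.93 and -1.75 in rho0, PKO-1 and PKO-6. *Agrn*, the heparan sulfate proteoglycan agrin, rose, at 1.57, 0.97 and 2.21, and the growth factor receptor *Fgfr2* fell, at -2.03, -4.14 and -1.75. *Rrm2b*, a ribonucleotide reductase subunit, and *Bcl2*, an inhibitor of apoptosis, missed the threshold in 1 line each, at 1.07, 0.43 and 0.75 and at 0.48, 0.75 and 0.91. *Slc25a33*, a mitochondrial pyrimidine carrier, had 1.22, 0.14 and 0.74. The semaphorin *Sema4d* was lower in rho0 and higher in both PKO lines, at -0.94, 1.12 and 1.41. *Wnt5a* was called lower in both PKO lines and not in rho0, at 0.33, -1.69 and -2.81. *Tfrc*, the transferrin receptor, fell in rho0 and PKO-6 and had -0.96, -0.21 and -0.65.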

How the data were processed

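RNA was measured in 12 libraries, 3 biological replicates of each of the 4 MEF lines. The authors purified total RNA with TriZol or RNeasy, which are not assigned to samples in the sources used here, removed ribosomal RNA, made stranded libraries as technical duplicates, read them from both ends and pooled the reads. Deposited were expected counts, estimates without normalization that come from RSEM 1.2.25 and Bowtie2, as named in the submitters' processing notes, against mm10 (GRCm38) and collapsed to 24453 genes. Of these, 18752 had a count. Because 12.5% of the values had decimals, they were rounded. Totals were 47164832 to 67991336 per library, so counting error is small for all but genes of a few reads.

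Groups follow the labels. Tests were run in R 4.3.3 (edgeR 4.0.16): 14026 genes passed filterByExpr (minimum count 10), libraries were scaled by TMM, and 4 lines were fitted with the quasi-likelihood test over all 12 libraries (biological coefficient of variation 0.0837). Contrasts were the mean of rho0, PKO-1 and PKO-6 against TM6, each line against TM6, and the 3 derived lines among themselves. P-values were adjusted by Benjamini-Hochberg over the whole table, and a call needed an adjusted p under 0.01 with a log2 fold change past 0.5 in either direction. The SE is the size of a log2 fold change divided by the square root of F. A normalized count is the count over the library's TMM-scaled size, set to the average library, and is not per length. Where all libraries of a side had 3 counts or fewer, a fold bound is given. The script was tested on simulated data with 200 genes changed alike in the 3 derived lines and another 200 changed in PKO-6 only.

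The genes named are the 10 higher and 10 lower genes of even size with the largest smallest change (100 normalized counts or more on average, no overlap), the 6 off and 6 on genes with the highest means, members of 40 gene lists compiled by hand, genes the study names, 3 genes of opposite direction, *Pnpt1* and *Tfrc*, and not all are printed. Some genes are not reported here and were left out of the lists. Members and lists were chosen with earlier results of these data known. RefSeq's promoter table held 10600 of the 14026 tested genes (75.6%). Alternatives were DESeq2 1.42.0, other scaling, filters and thresholds, a replicate block, chromosome medians removed, and libraries or lines left out. Protein sequences and mtDNA-encoded RNA were not analysed here.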

Additional observations from a re-analysis of the deposited data

Results flagged for a closer look

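The 3 derived lines differed from each other in 9687 of 14026 tested genes (edgeR's quasi-likelihood test of rho0, PKO-1 and PKO-6 with 2 contrasts, adjusted p below 0.01), and 478 genes were called higher in at least 1 line and lower in another. Among the 133 genes named in the text with a fold change in every line, 104 differed in this way. The size of the difference is given as the largest minus the smallest of the 3 log2 fold changes against TM6. The widest spreads were 11.46 for *Xist*, 11.31 for *Arap2*, 11.26 for *Slc52a3*, 9.87 for *Lum*, 9.04 for *Esrp1*, 8.67 for *Lyz2*, 6.25 for *Bgn*, 5.92 for *Aldh1l1*, 5.83 for *Cxcl12*, 5.80 for *Epcam* and 5.30 for *Pdgfra*. Spreads from 2 to 5 were found at 4.47 for *Dcn*, 4.42 for *Col3a1*, 4.01 for *Ccl2*, 3.25 for *Acta2*, 3.14 for *Wnt5a*, 2.49 for *Ass1*, 2.39 for *Fgfr2*, 2.35 for *Sema4d*, 2.25 for *Trib3*, 2.21 for *Atf3*, 2.09 for *Pnpt1*, 2.08 for *Aldh1l2* and 2.05 for *Ddit3*. Between 1 and 2 lay 1.96 for *Slc38a4*, 1.91 for *Cth*, 1.88 for *Chac1*, 1.84 for *Ppp1r15a*, 1.83 for *Gdf15*, 1.83 for *Stc2*, 1.79 for *Isg15*, 1.78 for *Slc2a3*, 1.73 for *Scd2*, 1.71 for *Ifit1*, 1.70 for *Trp53inp1*, 1.59 for *Slc7a3*, 1.56 for *Upp1*, 1.51 for *Lonp1*, 1.43 for *Col12a1*, 1.42 for *Sesn2*, 1.35 for *Col1a1*, 1.32 for *Nupr1*, 1.24 for *Abca1*, 1.24 for *Agrn*, 1.20 for *Artn*, 1.17 for *Cdkn1a*, 1.16 for *Asns*, 1.09 for *Atf4*, 1.09 for *Slc25a33*, 1.05 for *Vldlr* and 1.03 for *Mthfd2*. Between 0.5 and 1 lay 0.96 for *Pdgfrb*, 0.96 for *Col5a2*, 0.90 for *Hspa9*, 0.88 for *Phgdh*, 0.82 for *Vcl*, 0.80 for *Primpol*, 0.77 for *Vim*, 0.75 for *Tfrc*, 0.73 for *Insig1*, 0.67 for *Acaca*, 0.66 for *Hmgcs1*, 0.66 for *Herpud1*, 0.65 for *Pfkfb1*, 0.64 for *Ebp*, 0.64 for *Rrm2b*, 0.63 for *Aars*, 0.62 for *Srebf2*, 0.62 for *Csf1*, 0.62 for *Tars*, 0.60 for *Cyp51*, 0.55 for *Srebf1*, 0.53 for *Nsdhl* and 0.52 for *Trap1*. At a limit of 0.5 or under it, and yet past the test among the lines, lay 0.50 for *1110002L01Rik*, 0.50 for *Idi1*, 0.48 for *Tm7sf2*, 0.47 for *Fasn*, 0.47 for *Tpm1*, 0.47 for *G6pdx*, 0.46 for *Dnaja3*, 0.45 for *Nr4a2*, 0.44 for *Slc7a11*, 0.44 for *Bcl2*, 0.41 for *Msmo1*, 0.41 for *Sc5d*, 0.40 for *Adssl1*, 0.40 for *Pdha1*, 0.39 for *Pdk3*, 0.39 for *Tfb1m*, 0.37 for *Tmem47*, 0.37 for *Dag1*, 0.36 for *Hoxb4*, 0.36 for *Sod1*, 0.35 for *Npr3*, 0.35 for *Lss*, 0.32 for *Hk2*, 0.32 for *Uckl1*, 0.31 for *Fn1*, 0.29 for *Elovl1*, 0.29 for *Fdft1*, 0.29 for *Tgfbr2*, 0.28 for *Elovl6* and 0.24 for *Gclm*. Groups of 3 libraries were not searched for single libraries that stand apart.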

How the results depend on the processing

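DESeq2's size factors, no filter on low counts, DESeq2 in place of edgeR, an adjusted p below 0.05, the removal of *Rn45s*, the removal of chromosome medians, and the omission, chosen after seeing the data, of genes on chromosomes whose median was shifted by at least 0.3 in all 3 lines (12, 18 and X) all left the counts of genes called by the mean, in the common program, of even size, differing among lines and called in opposite directions within 1.5 times the values reported. DESeq2's test of the line differences was a likelihood ratio test, and it gave no adjusted p for 1 gene. Without chromosome medians 2091 genes were in the common program and 749 were even, and with chromosomes 12, 18 and X left out 1978 and 711. Leaving out each library in turn gave 4893 to 5248 genes called by the mean, 2372 to 2475 in the common program, 938 to 975 of even size, 8692 to 10160 that differed among lines and 423 to 479 in opposite directions. A fold change above 1 gave 2439 called by the mean, 1083 in the common program, 186 of even size and 234 in opposite directions. The adjusted p alone gave 8734, 4137, 2202 and 1136. A test against a log2 fold change of 0.5 (glmTreat) left 1480 in the common program, 451 of even size and 242 in opposite directions. The 2 groups of 9 and 3 libraries gave 3054, counts summed per line gave 0, and without PKO-1 3939 genes were common to the other lines. That last count was 3085 without rho0 and 2894 without PKO-6. An even size limited to a spread of 0.25 held for 409 genes, of 1 for 1571, and a smallest change at least 50% of the largest for 1640. The fold limits and glmTreat could not be applied to the test among lines. The labels share replicate numbers 1 to 3, and nothing in them ties a number to a batch or day. The correlations of same-numbered libraries' deviations from the line means ran from -0.385 to 0.25 over 18 pairs, with 10 over 0.1, so the numbers were not taken to pair the lines as a whole, and a library correlated best with its own number in 15 of 36 comparisons with another line. Between TM6 and PKO-6 all 3 pairs were over 0.1 (0.209 to 0.25) and this held in 6 of 6. With a replicate block the counts were 5042, 2423, 962, 9559 and 455. In a fit of the TM6 and PKO-6 libraries alone, chosen after seeing the data, 5818 genes were called without and 6012 with the replicate block, against 5799 as reported. For the genes named, 3210 of the values under an alternative kept their direction and side of the thresholds, 187 fell below them, 31 rose past them and 25 changed sign. All sign changes were in genes with opposite changes in different lines. The mean log2 fold change of *Arap2*, 0.01 as reported, was -0.0046 with DESeq2's size factors, -0.0011 without the filter, -0.079 in DESeq2, -0.018 without *Rn45s*, -0.92 to 0.19 without 1 library, -2.67 without rho0, -0.30 without PKO-6 and 2.99 without PKO-1. In 2 groups of 9 and 3, and with counts summed per line, it was 3.82 and 3.79 for *Arap2*, 2.33 and 2.33 for *Lum*, 2.12 and 2.09 for *Slc52a3* and 0.61 and 0.59 for *Xist*, since summed counts follow the lines with the highest counts. Without PKO-1 it was -0.89 for *Pdgfra*, 0.032 for *Pnpt1*, 2.52 for *Slc52a3* and 1.20 for *Xist*, and without rho0 0.82 for *Lum* and -0.14 for *Nupr1*. The cause of the other changes was not tested. Counts of list members in the common program moved by over 1.5 times in 72 values and stayed within it in 848.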
